A study of Capra hircus with 13 samples.

Results

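Of 18159 gene names listed once for goat MII oocytes, 4-cell and 8-cell stage embryos, 2 were below 2 FPKM (fragment counts scaled to transcript length and library size) in every MII and 4-cell library and at 5 FPKM or more in every 8-cell library. They were *BECN2*, the gene of beclin 2, and *CTSL*, the gene of cathepsin L. Names starting with ZNF, SLC, RPL, RPS, MRP, NDUF or KLF were set aside beforehand, which removed 1 gene, *KLF10*, that met the same limits. In embryos injected with *YTHDF2* siRNA, *CTSL* was 3.92-fold lower than in the negative control embryos and passed the test, whereas *BECN2* was 1.68-fold lower and did not. Of 10 macrophage markers tested, from a list drawn up after the data were seen, 8 were also called lower, against 15.3% of all tested names. Their part in the change of *CTSL* was not tested.

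The data were 13 RNA-seq libraries. The study names Smart-seq2, a full-length cDNA method for very small amounts of poly(A) RNA, as its library method. Of the 13 libraries, 9 were of untreated material, with 3 each of MII oocytes (mature, unfertilized eggs arrested in meiosis), 4-cell and 8-cell stage embryos produced by in vitro fertilization (IVF). The untreated libraries were taken over from earlier, separate studies of the same authors. The other 4 were of 8-cell stage embryos injected into the cytoplasm at 8 h after IVF, 2 with a universal negative control siRNA (NC), for which no dose is given in the sources used here, and 2 with 20 µM siRNAs against *YTHDF2* (YTHDF2-KD). The NC libraries are titled WT, and the study names this siRNA as the control of its knockdown experiments. No gene was deleted in any group. The injected libraries were made from pooled embryos, and no source used here says that replicates came from separate animals, so the p-values measure the spread between these libraries.

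During the maternal-to-zygotic transition an embryo degrades mRNAs stored in the egg and begins to transcribe its own genome. A gene with almost no mRNA in the egg whose mRNA then appears is read as a candidate for zygotic transcription. YTHDF2 is a reader of N6-methyladenosine that brings methylated mRNAs to degradation. Cathepsin L is a cysteine protease of the lysosome, made as an inactive precursor and carried there by mannose 6-phosphate receptors. Beclin 2 is a mammalian relative of beclin 1, the scaffold of the lipid kinase complex that starts autophagosomes. Beclin 2 is known for roles in autophagy and in the lysosomal degradation of some receptors. Both genes thus have a known link to the lysosome. With 2 genes this is background only, and the share of such genes over all names was not measured.

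The 2 duplexes against *YTHDF2* are shown because the knockdown comparison rests on them, with the 19 paired bases in capitals and the 2-base overhang in lower case.
YTHDF2 siRNA 1 sense: GGGCUGAUAUUGCUAGCAAtt
YTHDF2 siRNA 1 antisense: UUGCUAGCAAUAUCAGCCCaa
YTHDF2 siRNA 2 sense: GCAUGAAUACUAUAGACCAtt
YTHDF2 siRNA 2 antisense: UGGUCUAUAGUAUUCAUGCca

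The target of these duplexes was checked first. *YTHDF2* was at 111.54 and 158.61 FPKM in the NC libraries and at 8.07 and 4.47 FPKM in the YTHDF2-KD libraries. Its log2 fold change was -4.25 (SE 0.43, adjusted p = 3.7e-04, limma). Untreated MII oocytes held 2.59, 2.86 and 3.28 FPKM of *YTHDF2* mRNA, 4-cell embryos 5.43, 5.69 and 3.38, and 8-cell embryos 10.8, 16.7 and 12.5.

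Whole fragments could be recovered from the FPKM steps of the untreated libraries for 17907 of 17918 names above 0, and the names shared by the tables held at least 20801185 to 25970728 fragments per library. The injected values are rounded to 2 decimals and their depth is unknown. Summed over the 7 oocyte markers measured of 8 listed (zona pellucida and egg factors such as *ZP2*), levels were 1375 to 2362 FPKM at MII, 2067 to 3289 at the 4-cell stage, 2462 to 2809 at the 8-cell stage, 445 to 661 in NC and 839 to 1633 in YTHDF2-KD. The 7 of 10 cumulus and granulosa markers measured summed to 41.0 to 59.7, 51.3 to 65.2, 84.3 to 126.9, 34.9 to 36.2 and 66.6 to 68.5 FPKM in the same order, with *FSHR* listed at 0 in all 4 injected libraries. Sperm markers (4 of 7 measured) stayed between 0.216 and 1.11 FPKM in the untreated libraries and were at 12.3 to 12.8 in NC and 3.54 to 25.2 in YTHDF2-KD, mostly *TNP2*. Blood markers (2 of 4 measured) stayed between 0.0464 and 1.98 FPKM throughout. Oocyte and cumulus markers were thus higher in YTHDF2-KD than in NC, and their part in the knockdown results below was not tested.

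*BECN2* was chosen by its values in the untreated libraries, which are therefore given as a description. It was at 0, 0.0438 and 0 FPKM in the MII libraries, from 0, 2 and 0 fragments. A count of 0 allows up to 3 fragments, which is 0.0676 FPKM in MII replicate 1 and 0.0545 in MII replicate 3. At the 4-cell stage it was at 0.376, 1.81 and 1.83 FPKM, from 14, 63 and 68 fragments, so every 4-cell library lay above every MII library. At the 8-cell stage it was at 6.99, 41.7 and 6.56 FPKM, from 246, 1486 and 258 fragments. The group means were 0.0146 ± 0.0253, 1.34 ± 0.833 and 18.4 ± 20.2 FPKM (SD, *n* = 3), and the 8-cell mean was 13.8-fold the 4-cell mean, or 5.06-fold without 8-cell replicate 2. The 3 stages did not overlap, although 8-cell replicate 2 alone was 6.36-fold above the lowest 8-cell library.

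Some activation markers were also highest in 8-cell replicate 2, but not all. *ARGFX* and *DUXA*, homeobox factors known for their expression at genome activation in mammals, were at 52.8, 497 and 105 FPKM and at 22.9, 297 and 46.1 FPKM in the 3 8-cell libraries. *LEUTX*, another such factor, was at 253, 577 and 372 FPKM. *POU5F1*, a pluripotency factor, went the other way, at 34.9, 5.27 and 6.15 FPKM, and was lowest in replicate 2. The summed level of the activation markers (these 4 genes measured of 8 listed) was 14.4 to 19.2 FPKM at MII, 57.1 to 130 at the 4-cell stage and 364 to 1376 in 8-cell embryos. How far the embryos of each library had developed was not tested as a part of the *BECN2* level. *CTSL* did not show this spread.

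*CTSL*, chosen by the same values, was at 0.252, 0.509 and 0.658 FPKM in the MII libraries, from 12, 25 and 39 fragments. At the 4-cell stage it was at 0.0749, 1.58 and 1.22 FPKM, from 3, 59 and 49 fragments. The MII and 4-cell libraries overlapped, since 4-cell replicate 1 was the lowest of all 6. At the 8-cell stage *CTSL* was at 7.95, 14.3 and 14.3 FPKM, from 301, 547 and 604 fragments, above every earlier library. The means were 0.473 ± 0.206, 0.959 ± 0.785 and 12.2 ± 3.65 FPKM (SD, *n* = 3), and the 8-cell mean was 12.7-fold the 4-cell mean.

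The place of both genes among the 18138 names shared by all 13 libraries moved accordingly, with rank 1 the highest FPKM. *BECN2* ranked 15094, 14405 and 15703 at MII, 10030, 7769 and 7058 at the 4-cell stage and 5275, 1593 and 4698 in 8-cell embryos. *CTSL* ranked 10858, 10180 and 8965, then 12360, 8074 and 7846, then 4970, 3170 and 3192. Thus *BECN2* started lower than *CTSL* in every MII library. At the 8-cell stage it ranked above *CTSL* only in replicate 2.

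**Figure D1:**
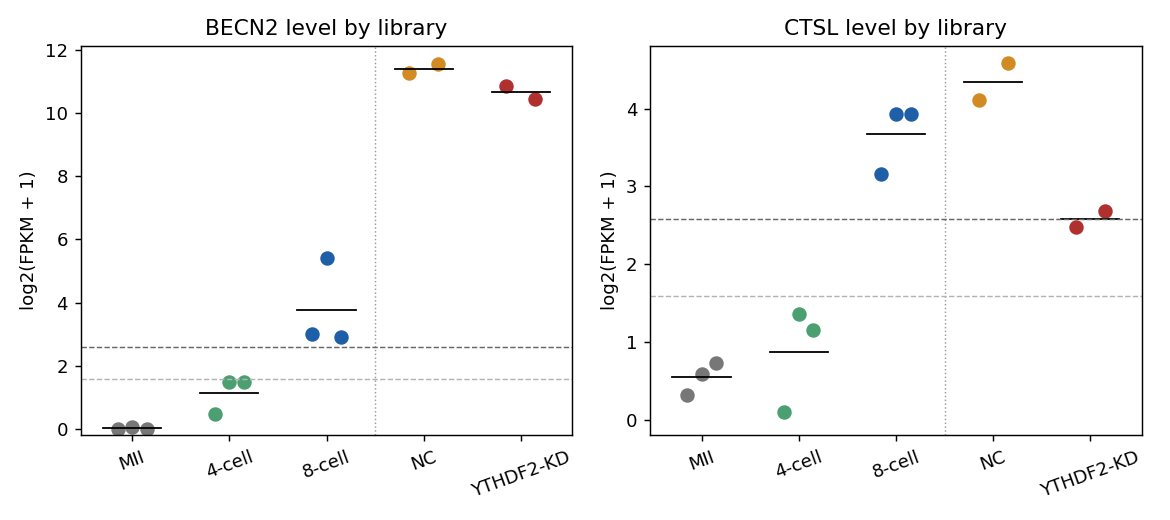
Levels of *BECN2* and *CTSL* in each of the 13 libraries on a log2(FPKM + 1) scale. Points are libraries, short bars are means of the log2 values, dashed lines mark the limits of 2 and 5 FPKM, and the dotted line separates the untreated from the injected libraries, which were normalized apart. *BECN2* reached 2982.24 FPKM in NC replicate 2, whereas *CTSL* was between 4.57 and 22.96 FPKM in the injected libraries.

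Few names came near this pattern. A total of 10616 names were below 2 FPKM in every MII library, 10259 in every 4-cell library and 9651 in both, and 4682 were at 5 FPKM or more in every 8-cell library. Of the 9651 names low at both early stages, 255 reached 5 FPKM in 8-cell replicate 1, 36 in replicate 2 and 6 in replicate 3. On the mean of the 3 8-cell libraries instead of each library, 41 of them reached 5 FPKM. Without regard to the 4-cell stage, 93 names were below 2 FPKM in every MII library and at 5 FPKM or more in every 8-cell library.

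Inside the limits, the highest 4-cell values were 1.83 FPKM for *BECN2* and 1.58 for *CTSL*, and the lowest 8-cell values were 6.56 and 7.95. Just outside the 4-cell limit were *IER5*, an immediate early response gene, at up to 2.20 FPKM and *MBNL2*, a splicing regulator, at up to 2.33, with 1 name starting with LOC also at up to 2.33. Just outside the 8-cell limit were *CDK20*, a cyclin-dependent kinase related gene, with 4.71 FPKM in its lowest library, *TARSL2*, a threonyl-tRNA synthetase like gene, with 4.23, and *ATF3*, a stress-induced transcription factor, with 4.19. Only 2 names failed the MII limit alone, *MALSU1*, a mitochondrial ribosome assembly factor, at up to 3.32 FPKM and *IQCK* at up to 4.16.

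*IER5* was at 17.5, 15.4 and 10.5 FPKM in the 8-cell libraries, higher than *BECN2* in 2 of the 3 replicates. *KLF10*, a transcription factor set aside by the start of its name, was at 0.0182, 0.0708 and 0.353 FPKM at MII, 1.14, 1.40 and 1.73 at the 4-cell stage and 12.9, 9.37 and 7.68 in 8-cell embryos.

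**Figure D2:**
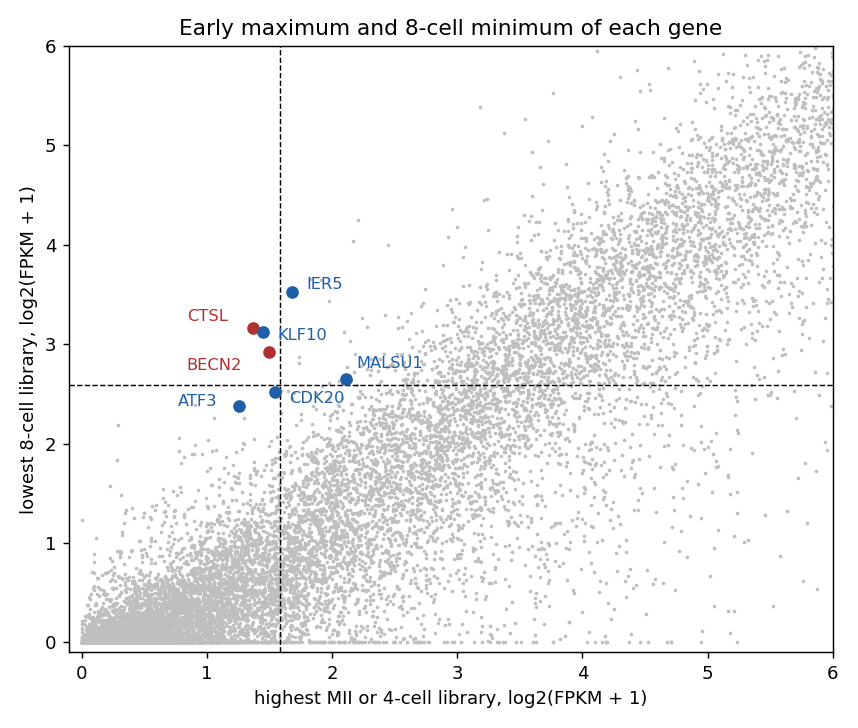
Each gene's highest value over the 6 MII and 4-cell libraries (horizontal) against its lowest value over the 3 8-cell libraries (vertical), both as log2(FPKM + 1), with axes shown up to 6 and higher genes not drawn. Dashed lines mark 2 and 5 FPKM. *BECN2* and *CTSL* (red) and *KLF10* lie in the upper left field, with *IER5*, *CDK20*, *ATF3* and *MALSU1* just outside it.

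The injected libraries took no part in the choice of *BECN2* and *CTSL*. Their tables list 27129 names against 21869 for the untreated embryos, hold values rounded to 2 decimals and were normalized apart, and whether the gene models and the counting behind each gene were the same could not be checked from FPKM. Both genes were at 5 FPKM or more in both NC libraries, where 30.0% of the 18138 shared names were, and neither was below 2 FPKM in both YTHDF2-KD libraries. *BECN2* was at 2461.6 and 2982.24 FPKM in the NC libraries, ranks 21 and 22 of the shared names. Its NC mean of 2722 ± 368 FPKM (SD, *n* = 2) was 148-fold its mean in the untreated 8-cell libraries, or 402-fold without 8-cell replicate 2. *CTSL* was at 16.29 and 22.96 FPKM in the NC libraries, with a mean of 19.6 ± 4.72 (SD, *n* = 2) that was 1.61-fold its untreated 8-cell mean.

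The experiments were normalized apart, so these folds between them are descriptive. The activation markers summed to 2868 to 3516 FPKM in the NC libraries against 364 to 1376 in the untreated 8-cell libraries. Study, injection, embryo timing, library making, gene models and counting cannot be told apart in the difference between NC and untreated embryos. The level and rank of *BECN2* in the injected libraries stand under that limit.

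In the knockdown comparison a gene was called where the unadjusted limma p was under 0.05 and the change was more than 2-fold, the limits that the study used. By this rule 1 of the 2 genes, *CTSL*, was lower in YTHDF2-KD, where 15.3% of all 11004 tested names were called lower, and 0 were higher, where 9.48% of all names were. Neither gene was higher at an unadjusted p under 0.05 alone. When the rule used p adjusted by Benjamini-Hochberg, the count was again 1 lower, against 5.92% of all names, and 0 higher, against 2.06%. The median log2 fold change of the 2 genes was -1.26 and that of all tested names 0.0054, with 49.8% of all names below 0. With 2 genes these counts are a description.

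*CTSL* was at 4.57 and 5.45 FPKM in the YTHDF2-KD libraries, both below the 16.29 and 22.96 FPKM of the NC libraries. The mean fell from 19.6 ± 4.72 to 5.01 ± 0.622 FPKM (SD, *n* = 2). The log2 fold change on the log2(FPKM + 1) scale was -1.76 (SE 0.43, 95% interval -2.67 to -0.85, adjusted p = 0.025, limma). It was called by the unadjusted p in all 10 alternative analyses, at log2 fold changes of -2.00 to -1.53, but its adjusted p of 0.0020 to 0.17 missed 0.05 in 4 of them. On values normalized apart, the YTHDF2-KD libraries were lower than all 3 untreated 8-cell values of 7.95 to 14.3 FPKM and higher than all 4-cell values.

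Markers of macrophages, cells in which cathepsin L is also abundant, were measured beside it. They were listed after the data had been seen, as 15 genes of which 14 were measured in the injected libraries. Their summed level was 30.4 and 82.3 FPKM in the NC libraries and 14.5 to 19.2 in YTHDF2-KD. Of the 10 tested, 8 were called lower and 0 higher by limma, and 7 were lower by the adjusted p, where 15.3% and 5.92% of all tested names were lower. *PTPRC*, one of the blood markers above and not on this list, was at 0.58 and 0.4 FPKM in NC. It was at 0.54 and 0.65 in YTHDF2-KD, so the groups overlapped.

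*FCER1G*, a signalling chain of antibody receptors, was at 4.75 and 20.54 FPKM in NC, and *AIF1*, a macrophage calcium-binding protein, at 5.19 and 13.1, and both were listed at 0 in both YTHDF2-KD libraries. The complement genes *C1QA*, *C1QB* and *C1QC* and the osteoclast phosphatase *ACP5* were likewise listed at 0 there and at 0.6 to 4.05 FPKM in NC. Of these, *C1QB* was too low to be tested. *CD53* (1.55 and 8.39 FPKM in NC, 0 and 0.36 in YTHDF2-KD), *CD68* (3.19 and 3.92, 0.71 and 0.3) and *TYROBP* (1.27 and 4.85, 0.56 and 0) were also called lower. The remaining tested markers, *LAPTM5* and *CSF1R*, were not called. *LAPTM5*, a lysosomal protein of blood cells, was at 7.62 and 13.9 FPKM in NC and 16.68 and 13.22 in YTHDF2-KD, and made up most of the YTHDF2-KD sum. *CSF1R*, a growth factor receptor of macrophages, was at 1.8 and 1.96 FPKM against 1.11 and 0.52. In the untreated 8-cell libraries only 8 of the markers were measured, and they summed to 3.20 to 7.73 FPKM. *LAPTM5*, at 4.84, 2.54 and 3.25 FPKM, and *CSF1R*, at 2.59, 0.397 and 0.823, made up most of that sum. *FCER1G*, *ACP5*, *CD53* and *CD68* were at 0 to 0.447 FPKM there. The part of these markers in the *CTSL* difference was not tested.

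*BECN2* was at 1835.64 and 1398.22 FPKM in the YTHDF2-KD libraries, again both below the NC libraries. The mean was 1617 ± 309 FPKM against 2722 ± 368 (SD, *n* = 2). The log2 fold change was -0.76 (SE 0.34, 95% interval -1.49 to -0.025, adjusted p = 0.158, limma), under the 2-fold limit although the unadjusted p was below 0.05. It was not called in any of the 10 alternatives, in which it was -0.95 to -0.56 with adjusted p of 0.077 to 0.63. The interval includes a change of more than 2-fold as well as almost none. The difference between the responses of *CTSL* and *BECN2* was not tested, and their intervals overlap.

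Genes just outside the limits were measured in the same libraries. Of these 8, including the name starting with LOC, 7 were tested and none was called by limma in either direction, nor was any at an unadjusted p under 0.05. *ATF3* was at 59.49 and 50.28 FPKM in NC and 51.59 and 56.84 in YTHDF2-KD, and *IER5* at 39.55 and 35.89 against 35.43 and 44.37, so the groups overlapped for both. *CDK20* was at 14.7 and 16.44 FPKM in NC and 33.68 and 25.05 in YTHDF2-KD (log2 fold change 0.86, adjusted p = 0.178). *KLF10* was at 78.08 and 96.89 against 60.13 and 75.65 FPKM.

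Genes already on by the 4-cell stage were taken as the nearest comparison, with names below 2 FPKM in every MII library and at 5 FPKM or more in every 4-cell and 8-cell library. There were 42 of them, of which 41 were tested and 30 were at 5 FPKM or more in both NC libraries. In YTHDF2-KD 2 were called lower and 7 higher, where the shares over all tested names were 15.3% and 9.48%, and 20 of 41 lay below 0. With 1 library left out they were 0 to 5 lower (5 without NC replicate 1, 1 without YTHDF2-KD replicate 1, 0 without YTHDF2-KD replicate 2) and 3 to 10 higher (3 without NC replicate 2, 4 without YTHDF2-KD replicate 2). By the adjusted p 1 was lower and 3 were higher. Their log2 fold changes ran from -1.49 to 1.81 with a median of 0.0041, which was 0.28 without NC replicate 1, 0.098 without NC replicate 2, 0.049 without YTHDF2-KD replicate 1, 0.091 with quantile normalization and -0.0020 with median-ratio rescaling. Whether the 2 lists differ was not tested.

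The known partners of the 2 genes were described next, from 3 lists of textbook members put together once *BECN2* and *CTSL* were known. Among 12 cathepsins other than *CTSL*, 9 were tested, 3 were called lower (*CTSK*, *CTSS* and *CTSV*) and 1 higher (*CTSB*), the same by the adjusted p, with a median log2 fold change of -0.56. Over all tested names 15.3% were lower and 9.48% higher, and 5.92% and 2.06% by the adjusted p. Without NC replicate 1 the calls were 2 lower and 0 higher of 8 tested, and without NC replicate 2 the median was -0.29. *CTSV*, a cysteine protease closely related to cathepsin L, was at 449.06 and 398.43 FPKM in NC and at 157.24 and 120.34 in YTHDF2-KD (log2 fold change -1.61, SE 0.38, adjusted p = 0.022). It was called by the unadjusted p in all 10 alternatives, and its adjusted p missed 0.05 in 6 of them (up to 0.173). Per the authors only uniquely mapped reads were counted, so reads fitting *CTSL* and *CTSV* equally would be left out of both. How many these were is unknown, and the sequences of the 2 genes were not compared here.

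*CTSV* differed from *CTSL* before the 8-cell stage. It was at 1.29, 2.15 and 3.37 FPKM at MII, 4.06, 16.4 and 8.43 at the 4-cell stage and 20.0, 91.0 and 22.1 in 8-cell embryos. It therefore failed the limits at both early stages, and it was high in the same 8-cell library as *BECN2*.

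*CTSB*, cathepsin B, another abundant lysosomal cysteine protease, moved the other way. It was at 33.24 and 62.74 FPKM in NC and 121.07 and 139.41 in YTHDF2-KD (log2 fold change 1.49, SE 0.42, adjusted p = 0.0445). It was called by the unadjusted p in 9 of 10 alternatives, and without NC replicate 1 it was 1.04 with adjusted p = 0.209. The adjusted p missed 0.05 in 7 of the 10. *CTSS*, a cathepsin best known from antigen-presenting cells, was at 5.88 and 15.03 FPKM in NC and listed at 0 in both YTHDF2-KD libraries. *CTSK*, the main cathepsin of bone resorption, was at 4.06 and 1.58 in NC and likewise listed at 0. The untreated 8-cell libraries, normalized apart, held 0, 0.164 and 0 FPKM of *CTSS* and 0, 0.0528 and 0.0120 FPKM of *CTSK*. The adjusted p of *CTSS* missed 0.05 in 1 of 10 alternatives and that of *CTSK* in 3 of 9, and without NC replicate 1 *CTSK* was too low to be tested. Of the 10 macrophage markers tested, listed after the data were seen, 8 were called lower in the same comparison, against 15.3% of all tested names. The part of these markers in the calls of *CTSS* and *CTSK* was not tested. The fitted intervals of these cathepsins are drawn in the plot of partner genes, with the pair listed at 0 as open points.

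Among 8 genes of the beclin 1 kinase complex and its partners, 7 were tested, 1 was called lower and 0 higher by limma, with a median log2 fold change of -0.42. This count of 1 is near the 15.3% of all tested names called lower. It was 2 without NC replicate 1 and without YTHDF2-KD replicate 1, and the median was -0.66 without NC replicate 1, -0.13 without NC replicate 2 and -0.23 without YTHDF2-KD replicate 2. The 1 called was *NRBF2*, a subunit that binds the complex containing ATG14, at 45.14 and 89.19 FPKM in NC and 19.31 and 10.35 in YTHDF2-KD (log2 fold change -2.09, SE 0.46, adjusted p = 0.018). It was called by the unadjusted p in all 10 alternatives, and its adjusted p missed 0.05 in 4 of them (up to 0.173). *ATG14*, which directs the kinase complex to autophagosome formation, was at 181.34 and 225.96 FPKM against 113.06 and 92.56 (log2 fold change -0.98, adjusted p = 0.114). It fell just short of the 2-fold limit and was called in 2 of 10 alternatives.

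*BECN1* itself was at 15.62 and 19.73 FPKM in NC and 16.62 and 19.65 in YTHDF2-KD (log2 fold change 0.039, adjusted p = 0.96), so the groups overlapped. It was at 9.07, 11.1 and 12.1 FPKM at MII, 3.33, 6.45 and 5.30 at the 4-cell stage and 26.0, 11.7 and 15.2 in 8-cell embryos. In FPKM, which is per length, *BECN2* was below *BECN1* in every MII and 4-cell library and in 8-cell replicates 1 and 3, and above it in every injected library. Reads fitting *BECN1* and *BECN2* equally would likewise be left out of both, and no sequence of either gene was compared here.

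The third list held 9 genes that sort, process or inhibit cathepsins, of which 7 were tested, 1 was called lower and 0 higher by limma, and none by the adjusted p, with a median of -0.55. This count too is near the background of 15.3%. It was 0 with quantile normalization, with the replicate block and without YTHDF2-KD replicate 2, 2 with an added constant of 0.1 FPKM, with median-ratio rescaling and without NC replicate 2, and 3 without YTHDF2-KD replicate 1. *M6PR*, the cation-dependent mannose 6-phosphate receptor, was at 20.15 and 40.28 FPKM in NC and 15.38 and 11.46 in YTHDF2-KD (log2 fold change -1.05, adjusted p = 0.14), and was called in 6 of 10 alternatives by the unadjusted p. *LGMN*, legumain, a protease that processes cathepsins in the lysosome, was at 203.5 and 122.16 FPKM against 89.13 and 69.45 (log2 fold change -0.99, adjusted p = 0.128, called in 4 of 10 alternatives). *IGF2R*, the larger mannose 6-phosphate receptor, was at 1.88 and 1.2 against 2.65 and 1.61 FPKM, with overlapping groups.

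**Figure D3:**
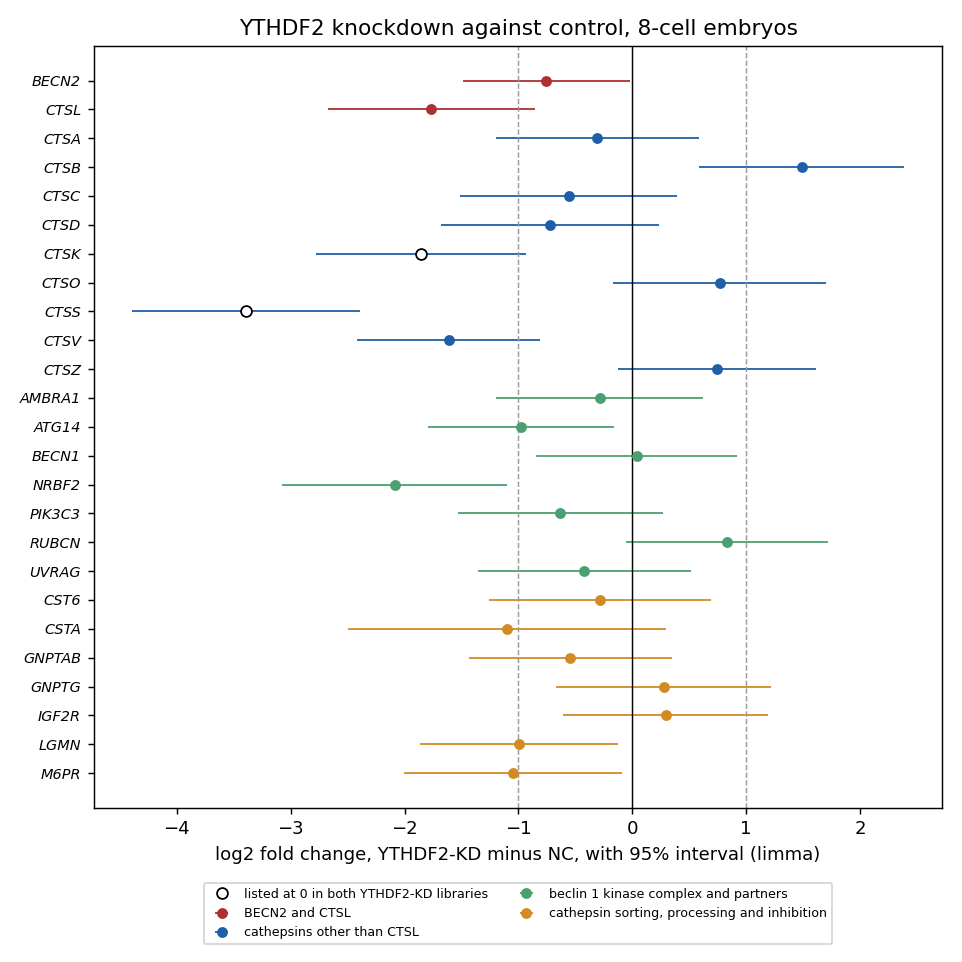
Log2 fold change (YTHDF2-KD minus NC, 2 libraries each) of *BECN2*, *CTSL* and the tested members of the 3 lists of related genes, with 95% intervals from limma. Dashed lines mark 2-fold in either direction, and open points are genes listed at 0 in both YTHDF2-KD libraries, whose position depends on the added constant of 1 FPKM. Of the closed points, *CTSL*, *CTSV*, *NRBF2*, *CSTA* and *M6PR* lie beyond the left dashed line, *CSTA* with an interval that includes 0, and *CTSB* lies beyond the right one, while the interval of *BECN2* runs from -1.49 to -0.025.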

How the data were processed

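The deposited values were FPKM, normalized by the authors per library. Per the authors, HISAT2 placed reads on goat assembly ARS1, HTSeq counted those mapped uniquely, and DESeq2 called genes. No column of values was left out. Names listed more than once were dropped (22 of 18880 at MII, 43 of 21869 in each embryo table, 8 of 27129 in the injected tables). The untreated libraries come from earlier studies of the authors, and MII oocytes and embryos were deposited as separate tables, so stage, study and table cannot be told apart.

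*BECN2* and *CTSL*, the gene lists and the tests were chosen with earlier results of these data known. Levels in the 9 untreated libraries chose the genes and were not tested. The 4 injected libraries were compared by limma 3.58.1 (R 4.3.3, eBayes with a mean-variance trend) after taking log2(FPKM + 1), over 11004 names with a mean of at least 1 FPKM, with Benjamini-Hochberg adjustment over all of them. No covariate was used. The fit was tested on simulated data. Log2 values of replicates correlated at 0.947 (NC) and 0.951 (YTHDF2-KD) across genes. Fragments were recovered where FPKM steps gave whole numbers within 0.001, and a count of 0 was taken to allow 3 fragments; this limit covers counting error only.

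Text gives the 2 genes, the nearest names outside each limit (up to 3), genes of the lists with calls or a known role beside *BECN2* or *CTSL*, and *YTHDF2*. Names starting with LOC were counted only. Partner genes were picked for naming after their values were seen. Alternatives were an added constant of 0.1 FPKM, no filter, median-ratio rescaling, quantile normalization, a replicate block, other FPKM limits and leaving out each library. Figures were drawn with matplotlib 3.10.9 in Python 3.11.15. The reference table of gene symbols is of a later assembly release, so no coordinates are given.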

Additional observations from a re-analysis of the deposited data

How the results depend on the processing

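Membership rests on the limits. With below 1 and at least 5 FPKM, or with below 2 and at least 10 FPKM, 0 genes met them, and with median-ratio rescaling 4 did, *IER5* and 1 name starting with LOC being added. Leaving out 1 untreated library gave 2 to 9 genes: 6 without 4-cell replicate 2, 4 without 8-cell replicate 1, 9 without 8-cell replicate 3 (*ATF3*, *CDK20* and *TARSL2* among those added) and 2 without any 1 of the other libraries. The count of 1 lower and 0 higher in YTHDF2-KD held in all 10 alternatives and with the adjusted p in the rule, as did both counts of levels in NC and YTHDF2-KD under the other limits tried. The adjusted p of *CTSL* missed 0.05 with no filter (0.173), with quantile normalization (0.0547), without NC replicate 1 (0.0536) and without NC replicate 2 (0.131).

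Of the genes on by the 4-cell stage, 1 was called lower with quantile normalization and 1 with the adjusted p, and 0 to 5 when 1 injected library was left out. Called higher were 3 with the adjusted p and 3 to 10 when 1 library was left out. Their median reversed to -0.0020 with median-ratio rescaling, and it was 0.28 without NC replicate 1. A lone library was assumed to vary like the other group. Over all names, the calls were 1134 to 2085 lower and 545 to 1331 higher when 1 library was left out, against 1685 and 1043, and 1379 and 1218 with quantile normalization. The causes were not tested.

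Same-numbered libraries did not deviate together (correlation -0.152 across genes), so the numbers were not taken as pairs. With the replicate block 1674 names were lower and 1014 higher, *CTSL* stayed the 1 gene called (adjusted p = 0.0455) and *BECN2* stayed uncalled. Crossing the numbers, an alternative chosen after seeing the data, gave 1747 lower and 1063 higher.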
